A study of Mus musculus with 25 samples.

Results

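The 10 genes described here code for acute phase and iron-binding plasma proteins. They are the pentraxins Crp and Apcs, the serum amyloid A genes Saa3 and Saa4, the inter-alpha-trypsin inhibitor heavy chains Itih3 and Itih4, haptoglobin (Hp), hemopexin (Hpx), hepcidin (Hamp) and transferrin (Trf). They were matched to the arrays by the platform's gene symbol, and every probe set of each gene was read in all 10 sample groups. Of the 10 genes, 9 had a probe set of their own, among 18193 such genes on the array. In all, 12 of 45101 probe sets were listed for them, 2 each for Saa4 and Hamp and 1 for each of 7 other genes. The remaining one was listed for both Trf and Srprb, a subunit of the signal recognition particle receptor, so no value could be given to Trf alone.

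The 25 arrays covered 10 groups of mouse samples, 1 sample per array. Induced hepatocytes (iHep) were made from C57BL/6J embryonic fibroblasts (E13.5) with retroviral Foxa1 and Hnf4a, 2 liver transcription factors, and were grown with dexamethasone, a glucocorticoid, and with hepatocyte and epidermal growth factors. They were measured as iHeps with lentiviral shRNA against Cdx2, a regulator of intestinal epithelium (n = 4), iHeps with scramble shRNA (n = 4), iHeps sorted by GFP 12 days after transplantation into the DSS-damaged colon of Rag2gammac-/- mice (n = 2), and unmodified cultures of independent lines (n = 3). Both shRNA groups of iHeps were selected with puromycin for 2 days and harvested 1 week later. The native tissues were adult C57BL/6J liver, C57BL/6J fetal liver (E14.5), and crypts from the colon of Rag2gammac-/- mice aged 8 weeks (n = 2 each). The adult liver labels disagree, naming fresh liver at 8 weeks in one field and collagenase-isolated hepatocytes at 10 weeks in another. Induced macrophages (iMac) came from 1 pre-B cell line, C10, converted with estradiol, with IL-3 and CSF-1 in the medium by the scramble label, and carried lentiviral shRNA against the B-lineage factor Ebf1, against the B cell coactivator Pou2af1, or scramble shRNA (n = 2 each), with 2 days of puromycin before conversion. Rag2gammac-/- mice lack lymphocytes. Only the iHep lines are labelled as independent, so in the other groups the spread between arrays, on which the p-values also rest, may be technical.

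Values are log2 signals after robust multi-array averaging (RMA), on which a difference of 1 is a 2-fold change. Tests are limma's, with Benjamini-Hochberg adjustment over all genes tested and a threshold of 0.05, and errors of differences are limma's standard errors (SE). The tests ran in 3 models, of 6 iMac arrays, of 8 iHep shRNA arrays and of the 11 others. Each gene had 1 spread estimate per model, shared by all its groups. Comparisons of tissues or engrafted iHeps with one another therefore also carry the spread between the unmodified iHep lines. A gene was tested if at least 2 arrays of a model had it above their 40th percentile (5.52 to 5.80). Among the arrays of tissues and unmodified or engrafted iHeps, Crp, Itih3, Itih4 and Hamp would not have passed that filter without the liver arrays. Their calls in any comparison with a liver group therefore add no support to a count. The same limit can hold for genes of the related lists below that are low outside the livers, which was not checked gene by gene. Counts and medians of those lists against a liver group therefore add no support either. Against a group under the 40th percentile, a difference is limited by the background of the probe set and has no exact size. The highest value on any array was 15.11, and differences between values near it can be compressed. In bulk RNA, fewer cells of a type and less RNA per cell cannot be told apart.

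Acute phase proteins are plasma proteins made mainly in hepatocytes, whose synthesis changes in inflammation under interleukin 6, acting through STAT3, and under interleukin 1, acting through NF-kappaB and C/EBP factors. Glucocorticoids add to this response. Iron-binding plasma proteins stand beside it: hepcidin closes the iron exporter ferroportin and is driven by BMP and SMAD signals, transferrin carries ferric iron, and haptoglobin and hemopexin clear haemoglobin and haem released from red cells. In mouse, Apcs (serum amyloid P) is a stronger acute phase reactant than Crp, and Saa3 is made by macrophages and epithelia as well as by liver.

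Promoter sequence was available from RefSeq (GRCm38.p6) for 8 of the 10 genes, Hp and Trf being the exceptions. The 130 bases before the annotated start are printed for 5 of them, Hamp, Itih4, Crp, Saa3 and Hpx, because the results below turn on these genes and each window holds a match to a motif of the acute phase or iron pathways. Capitals mark matches, sought on both strands, to TTNNGNAA (C/EBP), TTCNNNGAA (STAT), GGCGCC (the BMP response element), or to the HNF1 or NF-kappaB motif. The windows are chr7:30944030-30944159 (minus strand) for Hamp, chr14:30886346-30886475 (plus strand) for Itih4, chr1:172697926-172698055 (plus strand) for Crp, chr7:46715677-46715806 (minus strand) for Saa3 and chr7:105600117-105600246 (minus strand) for Hpx, each written 5′ to 3′ along the gene.
Hamp promoter: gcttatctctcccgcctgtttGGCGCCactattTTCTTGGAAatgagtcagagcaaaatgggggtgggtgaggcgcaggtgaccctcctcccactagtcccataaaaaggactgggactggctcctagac
Itih4 promoter: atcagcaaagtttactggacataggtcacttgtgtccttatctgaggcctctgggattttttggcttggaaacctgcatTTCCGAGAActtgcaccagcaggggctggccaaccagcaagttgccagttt
Crp promoter: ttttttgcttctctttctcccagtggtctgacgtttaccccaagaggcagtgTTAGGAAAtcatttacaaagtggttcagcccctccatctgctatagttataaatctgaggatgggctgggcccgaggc
Saa3 promoter: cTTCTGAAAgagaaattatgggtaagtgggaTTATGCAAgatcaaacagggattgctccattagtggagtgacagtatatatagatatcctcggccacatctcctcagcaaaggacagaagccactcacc
Hpx promoter: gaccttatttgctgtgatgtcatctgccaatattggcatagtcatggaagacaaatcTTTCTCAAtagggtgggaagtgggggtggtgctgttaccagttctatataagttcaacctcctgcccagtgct
Hamp held GGCGCC 109 bases and TTCTTGGAA 97 bases before the start. Itih4 held the STAT-type TTCCGAGAA 51 bases before its start. Saa3 held the C/EBP-type TTCTGAAA and TTATGCAA, 129 and 99 bases before the start, with 2 more matches farther out. Crp held TTAGGAAA 78 bases before the start, and Hpx held TTTCTCAA on the motif's other strand 73 bases before it. In windows of 250 bases, the C/EBP motif was found in 4 of 8 of these promoters and in 36.8% of 32851 promoters, the STAT motif in 3 of 8 and 7.02%, and GGCGCC in 1 of 8 and 9.59%. The NF-kappaB motif was found in 0 of 8 and 1.41%, and the HNF1 motif in 0 of 8 and 0.00913%. No 2 different motifs overlapped. A match is a run of letters and not a measured binding site.

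**Figure D1:**
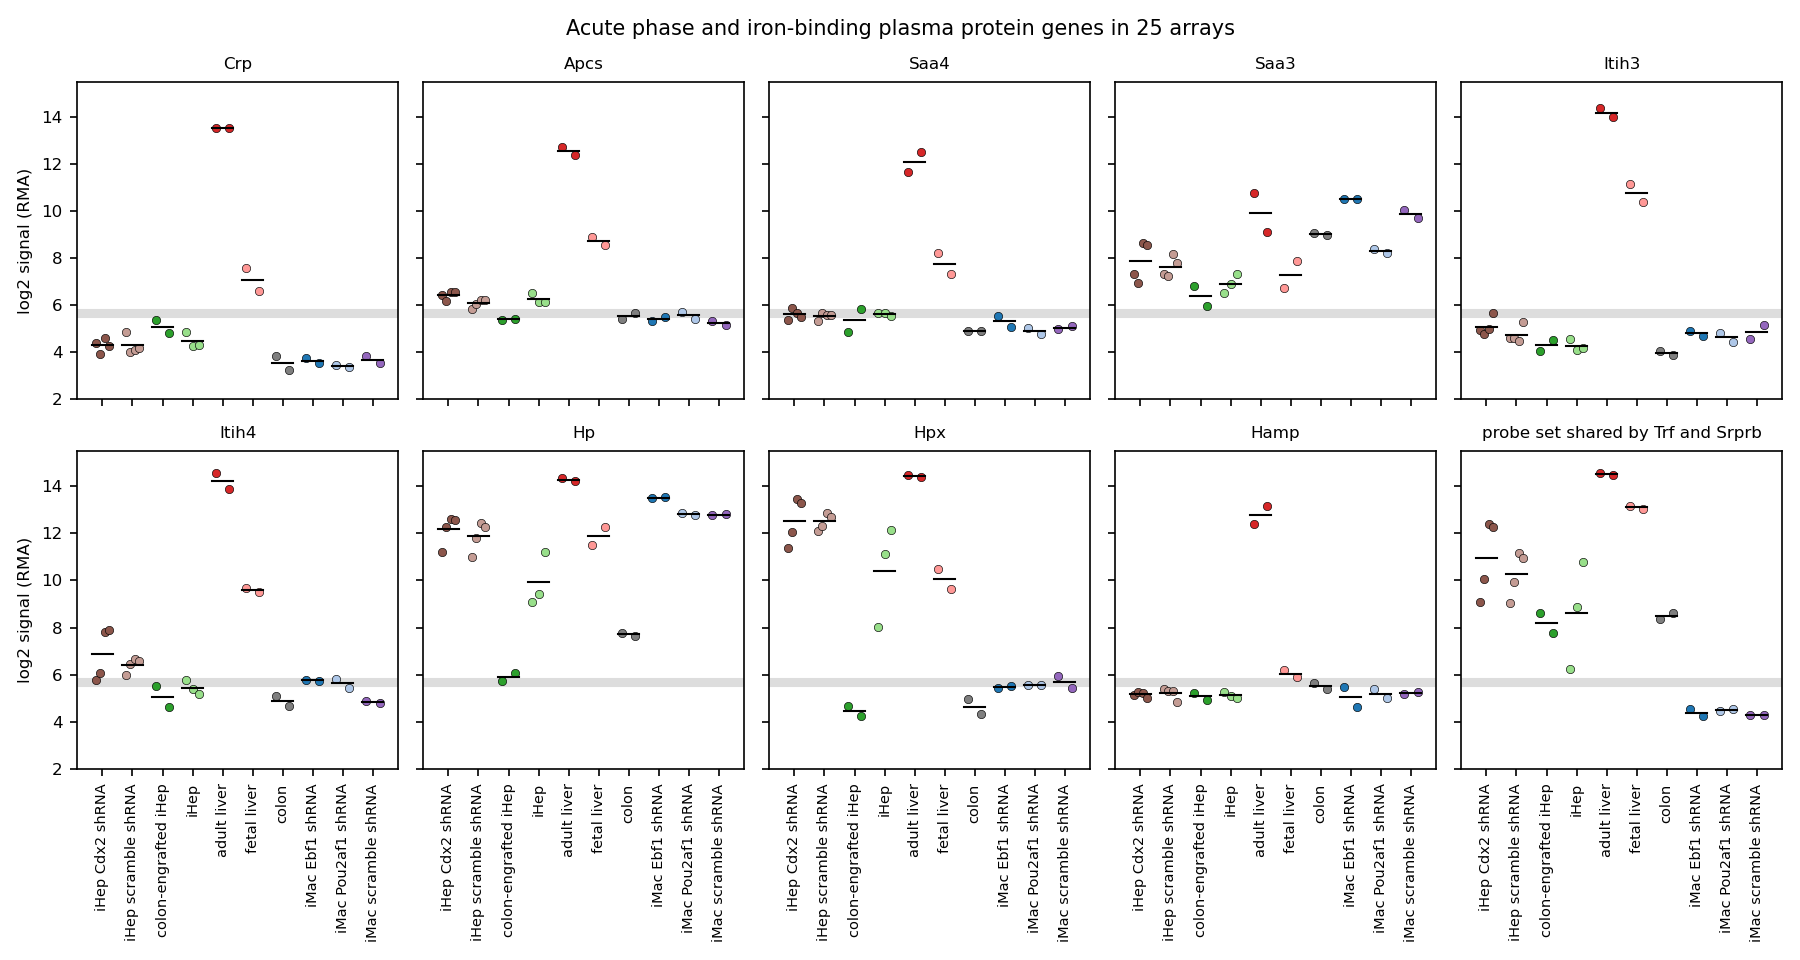
Log2 RMA signal (vertical axis) of each gene's main probe set, and of the one shared by Trf and Srprb, in the 10 groups (horizontal axis). Points are single arrays, black lines are group means, and the grey band is the 40th percentile of the arrays (5.52 to 5.80). Crp, Apcs, Saa4, Itih3, Itih4 and Hamp stand out in adult liver, while Hp, Hpx and Saa3 lie well above the band in other groups too.

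The pentraxins were liver genes in these samples. Crp, which binds phosphocholine on damaged cells and microbes, had 4.87, 4.27 and 4.29 in iHeps, 13.51 and 13.53 in adult liver, 7.56 and 6.62 in fetal liver and 3.84 and 3.23 in colon. Apcs, which coats amyloid and chromatin, had 6.50, 6.14 and 6.14 in iHeps, 12.70 and 12.37 in adult liver, 8.90 and 8.56 in fetal liver and 5.43 and 5.65 in colon. Both genes were highest in adult liver and next highest in fetal liver, with no overlap between those groups or with any of the other 8. Below fetal liver, Crp stood under the 40th percentile in every array. Apcs was slightly above it in every unengrafted iHep array, at 5.85 to 6.54, and the Cdx2 shRNA, unmodified and scramble iHeps overlapped there.

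The serum amyloid A genes did not share a pattern. Saa4, the constitutive apolipoprotein of the family, had 5.67, 5.68 and 5.55 in iHeps, 11.65 and 12.51 in adult liver, and 8.20 and 7.34 in fetal liver. A second Saa4 probe set gave 5.51, 4.35 and 5.10 in iHeps, 8.32 and 8.61 in adult liver, and 5.84 and 6.10 in fetal liver. The 2 probe sets ranked both livers first, and correlated at r = 0.89 over the 25 arrays, but the spacing differed. Saa3, the inflammation-induced member, was highest in iMacs with Ebf1 shRNA (10.51 and 10.52), adult liver (10.76 and 9.09) and scramble iMacs (10.04 and 9.72). Adult liver overlapped both of those iMac groups. Colon followed at 9.06 and 8.99 and iMacs labelled Pou2af1 shRNA at 8.39 and 8.21. The 3 cultured iHep groups lay between 6.50 and 8.63, fetal liver at 6.71 and 7.87, and engrafted iHeps lowest at 6.83 and 5.96, each overlapping the next in order. Saa3 alone of the 9 genes had its highest group mean outside adult liver.

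The inter-alpha-trypsin inhibitor heavy chains, which are linked to hyaluronan or, for Itih4, cleaved by kallikrein in plasma, were also liver genes. Itih3 had 4.55, 4.09 and 4.17 in iHeps, 14.36 and 14.00 in adult liver, 11.16 and 10.38 in fetal liver and 4.07 and 3.89 in colon. All iHep and iMac arrays of Itih3 lay at 4.06 to 5.69, so only the livers stood clear of the 40th percentile band. Itih4 had 5.78, 5.37 and 5.18 in iHeps, 14.55 and 13.89 in adult liver, 9.68 and 9.49 in fetal liver and 5.09 and 4.68 in colon. It also reached 5.77 to 7.88 in iHeps with Cdx2 shRNA and 5.98 to 6.67 in iHeps with scramble shRNA, groups that overlapped each other.

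Haptoglobin and hemopexin, the scavengers of haemoglobin and haem, stood well above the 40th percentile in every cultured iHep array. Hp had 11.21, 12.28, 12.62 and 12.58 in iHeps with Cdx2 shRNA, 10.99, 11.82, 12.44 and 12.28 with scramble shRNA, and 9.10, 9.43 and 11.22 in unmodified iHeps. The livers held 14.35 and 14.22 in the adult and 11.51 and 12.28 in the fetus. Hp was also abundant in every iMac, at 12.77 to 13.53, above all 11 iHep culture arrays, and lower in colon (7.78 and 7.65) and engrafted iHeps (5.72 and 6.05). Hpx had 11.37, 12.06, 13.44 and 13.29 in iHeps with Cdx2 shRNA, 12.11, 12.33, 12.87 and 12.71 with scramble shRNA, and 8.01, 11.11 and 12.14 in unmodified iHeps. Its adult liver values were 14.48 and 14.39, its fetal liver values 10.50 and 9.65. In engrafted iHeps (4.65 and 4.23), colon (4.96 and 4.31) and 5 of 6 iMac arrays Hpx lay under 5.80. The orders of the 2 genes thus parted in the macrophages, where Hp was high and Hpx was near background.

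The 3 unmodified iHep lines differed widely in these scavengers. Line 1 was lowest and line 3 highest for Hp, for Hpx and for the probe set shared by Trf and Srprb (6.23, 8.88 and 10.80). The mean of 10 hepatocyte markers ran the same way, 6.58, 7.99 and 8.84 in lines 1 to 3, as did the means of 3 fetal hepatoblast markers (6.47, 9.29 and 11.22) and of 6 fibroblast markers (5.34, 7.20 and 7.69). The part of these cell contents in the spread was not tested. Apcs had its highest iHep value in line 1 (6.50, against 6.14 and 6.14). So did Crp, Itih3, Itih4 and the main Hamp probe set, which lay near or under the 40th percentile in all 3 lines.

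Hamp, the iron-regulating hormone, was an adult liver gene. Its main probe set gave 5.24, 5.08 and 5.02 in iHeps, 12.40 and 13.17 in adult liver and 6.21 and 5.88 in fetal liver, and its second probe set gave 4.11, 4.14 and 4.0 in iHeps, 12.79 and 13.96 in adult liver and 6.17 and 5.79 in fetal liver. The 2 correlated at r = 0.99 over the 25 arrays. All other groups lay at 3.52 to 5.63 over both probe sets. Hamp2, a near-identical copy, had the same order (6.41, 6.64 and 6.42 in iHeps, 14.26 and 14.41 in adult liver, 7.41 and 7.42 in fetal liver), and signal of the 2 genes may be mixed.

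The probe set shared by Trf and Srprb had 9.09, 10.05, 12.38 and 12.27 in iHeps with Cdx2 shRNA, 9.05, 9.95, 11.16 and 10.94 with scramble shRNA, 8.63 and 7.76 in engrafted iHeps and 6.23, 8.88 and 10.80 in unmodified iHeps. It reached 14.56 and 14.46 in adult liver and 13.17 and 13.04 in fetal liver, stood at 8.38 and 8.63 in colon, and was at 4.24 to 4.54 in all 6 iMac arrays. The 3 probe sets listed for Srprb alone did not follow it: their means were 6.54 to 7.75 in adult liver, against 7.20 to 10.04 in iMacs. Of the transferrin receptors, Tfrc, which takes up loaded transferrin in dividing cells, was highest in fetal liver (13.47 and 13.39). Tfr2, the iron sensor of hepatocytes, was highest in adult liver (12.72 and 12.58).

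Over the 10 group means, Saa4, Apcs, Crp, Itih3, Itih4 and Hamp correlated with one another at r = 0.87 to 0.99. Saa3 correlated with the other genes at r = −0.11 to 0.60, the highest value being with Hp. These are descriptions over 10 group means that share the adult liver arrays. Similar patterns were sought among 15623 genes, from which the described genes were then left out. The pattern of Saa4 was most like that of Cyp2c29 (r = 0.999) and that of Hamp like Ces1c (0.998). Those of Apcs and Itih3 were most like Vsig4 and Igfbp1 (0.997 each), that of Crp like Sult5a1 (0.995) and that of Itih4 like Gpr182 (0.99). Hp was most like Rbm5 (0.986), Hpx like Ammecr1l (0.985) and Saa3 like Cyth1 (0.936).

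The comparison of cultured iHeps with adult liver asked how far fibroblast-derived cells had taken on hepatocyte plasma protein expression. All 9 genes were lower in iHeps, where 55.9% of 15262 tested genes were called in either direction. Crp, Itih3, Itih4 and Hamp stand in that count under the filter limit given above. The deficit was deepest for Itih3 (−9.91 ± 0.29, log2 fold change ± SE, adjusted p = 1.99e-08), Crp (−9.05 ± 0.34), Itih4 (−8.78 ± 0.33) and Hamp (−7.67 ± 0.26). Saa4 differed by −6.45 ± 0.36 in its main probe set and by −3.48 ± 0.38 in its second. For these 5 the iHep arrays lay within or under the range of the 40th percentiles, so the sizes are limited by background. Apcs differed by −6.27 ± 0.22. The deficit was smallest for Hp (−4.36 ± 0.54), Hpx (−4.01 ± 0.94, adjusted p = 0.00476) and Saa3 (−3.01 ± 0.52, adjusted p = 0.000758). No iHep array reached an adult liver array in any of the 9 genes, a description for which no share over all genes is given. The shared Trf and Srprb probe set, tested among 34568 probe sets of which 55.1% were called, was lower by −5.87 ± 0.98 (adjusted p = 0.000566).

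Other plasma proteins and their pathways were compared as lists. Of 21 tested genes for other acute phase and plasma proteins, 13 were lower and 0 higher in iHeps than in adult liver, with a median of −4.25 against 0.26 over all genes. This count and median stand under the filter limit given above. Orm1, an acid glycoprotein that carries drugs in plasma, had the largest difference (−9.49 ± 0.31), followed by mannose-binding lectin Mbl2 (−9.22 ± 0.52), the protease trap Pzp (−9.14 ± 0.90) and Ambp (−8.51 ± 0.24), the precursor of bikunin, which pairs with the Itih chains. Lbp, which presents endotoxin (−2.40 ± 1.04), and the metallothionein Mt2 (1.61 ± 0.68) did not pass the threshold. Of 24 acute phase signalling genes, 6 were higher and 8 lower (median −0.17). Among them Lifr, a receptor of the interleukin 6 family, was lower (−3.94 ± 0.54) and its relative Osmr, the oncostatin M receptor, higher (4.43 ± 0.80). Cebpd, a C/EBP factor of the acute phase, was higher (3.55 ± 0.68) and Foxa2 lower (−5.26 ± 0.25). Of 35 iron and haem genes, 10 were higher and 12 lower (median 0.41). The lower ones included Hamp2 (−7.85 ± 0.19), the iron exporter Slc40a1 (−6.96 ± 0.39), the hemojuvelin protease Tmprss6 (−5.93 ± 0.23) and the haemoglobin scavenger receptor Cd163 (−5.84 ± 0.56), a macrophage gene. Kupffer cell markers averaged 4.98 to 5.22 in iHeps, against 10.98 and 8.71 in the adult liver arrays, with 1 of 6 and 6 of 6 markers above the 40th percentile in all arrays. The part of these cells in the Cd163 difference was not tested.

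**Figure D2:**
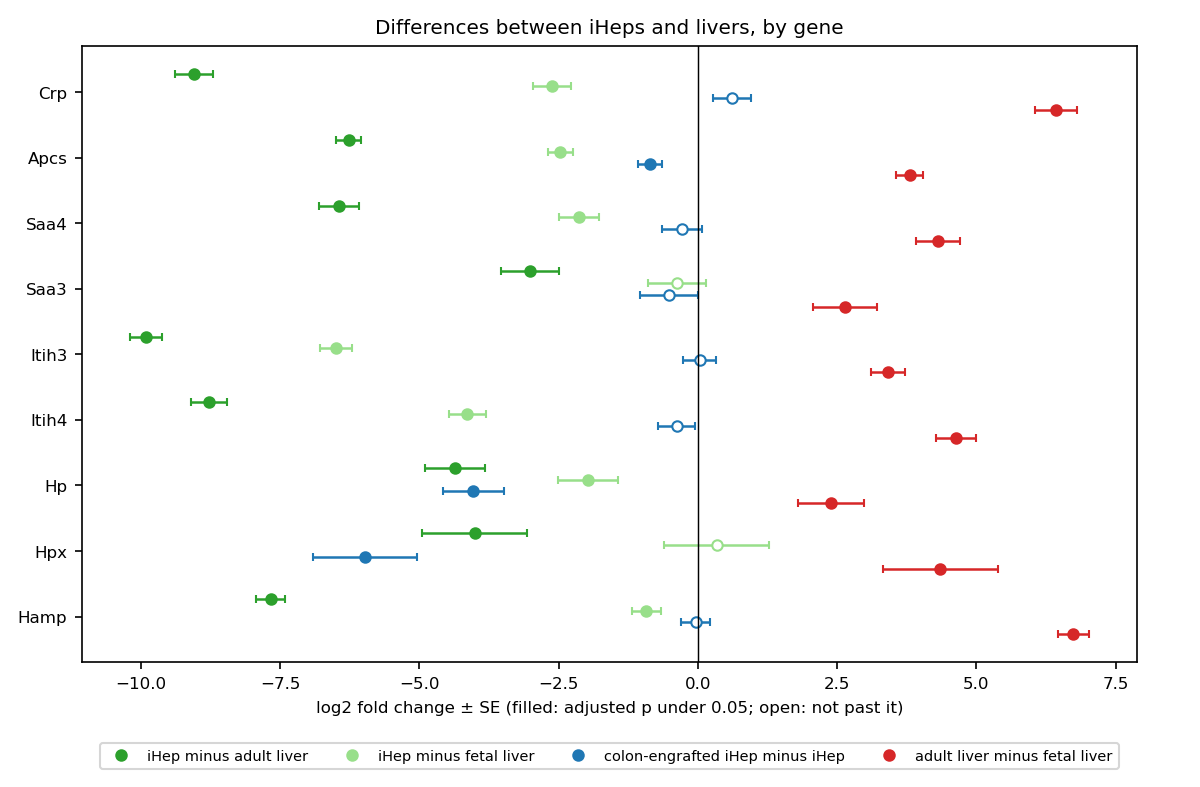
Log2 fold change ± SE (horizontal axis) of the 9 genes (vertical axis) in 4 comparisons. Filled points passed an adjusted p of 0.05 and open points did not. iHeps fell short of adult liver in all 9 genes, whereas Saa3 and Hpx did not pass the threshold between iHeps and fetal liver.

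The comparison with fetal liver set iHeps against immature hepatocytes in a blood-forming organ. Of the 9 genes, 7 were lower in iHeps and 0 higher, where 33% of all tested genes were called. Itih3 (−6.50 ± 0.29, adjusted p = 3.81e-07) and Itih4 (−4.14 ± 0.33) led, followed by Crp (−2.62 ± 0.34), Apcs (−2.47 ± 0.22) and Saa4 (−2.14 ± 0.36). The second Saa4 probe set differed by −0.98 ± 0.38 and did not pass (adjusted p = 0.0887). Hp was lower by −1.97 ± 0.54 (adjusted p = 0.0177), a call lost without iHep replicate 2 (−1.73, adjusted p = 0.0588) or fetal liver replicate 2 (−1.59, adjusted p = 0.161). Hamp's main probe set was lower by −0.93 ± 0.26 (adjusted p = 0.0197) with iHeps at background, a call lost at −0.76 to −1.09 without iHep replicate 2 or 3 or either fetal liver array. Its second probe set was lower by −1.90 ± 0.32 (adjusted p = 0.0017), also with iHeps at background. Hpx stood at 0.34 ± 0.94 (adjusted p = 0.83), and without iHep replicate 1 it was higher in iHeps by 1.55 (adjusted p = 0.0207). Saa3 stood at −0.37 ± 0.52 (adjusted p = 0.649). The shared Trf and Srprb probe set was lower in iHeps by −4.47 ± 0.98 (adjusted p = 0.00716), where 26.6% of probe sets were called.

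Among the other plasma proteins, 2 were higher and 7 lower in iHeps than in fetal liver, of 21 tested (median −0.71, against 0.05 over all genes). Fgb, the fibrinogen beta chain, was higher (3.07 ± 0.66), and so was the copper ferroxidase Cp, while Lcn2, which binds bacterial iron carriers (−5.92 ± 0.96), Ambp (−5.85 ± 0.24), Pzp (−5.26 ± 0.90) and A2m (−3.93 ± 0.38) were lower. Lcn2 and Ltf (−7.13 ± 0.82), the iron binder of neutrophil granules, accompanied neutrophil markers that averaged 5.29 to 5.57 in iHeps, against 13.35 and 14.04 in fetal liver, with 5 of 5 above the 40th percentile there and Ltf itself in that list. The part of neutrophils in these differences was not tested. Of 24 signalling genes, 8 were higher and 2 lower, with a median of 0.32. The receptors Osmr (6.43 ± 0.80), Il6st, the gp130 subunit shared by the interleukin 6 family (3.08 ± 0.28), Lifr (2.11 ± 0.54) and Il1r1 (1.74 ± 0.36) were all higher in iHeps. Of 35 iron and haem genes, 8 were higher and 12 lower, Slc40a1 among the lower (−6.42 ± 0.39).

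Against colon crypts, iHeps were higher in 4 of 9 genes and lower in 1, where 53.6% of all tested genes were called. Hpx was higher by 5.79 ± 0.94 (adjusted p = 0.000704) and Hp by 2.20 ± 0.54 (adjusted p = 0.0066). Saa3 was lower by −2.11 ± 0.52 (adjusted p = 0.00714), the colon arrays standing at 9.06 and 8.99, above every iHep line. Macrophage markers averaged 5.68 to 5.84 in iHeps, against 7.0 and 7.02 in colon, and neutrophil markers 5.29 to 5.57 in iHeps, against 8.67 and 8.52 in colon. Their part in the Saa3 difference was not tested. The calls of Apcs (0.72 ± 0.22) and Crp (0.94 ± 0.34) were small and fragile: Crp lay under the 40th percentile in both groups, and the Apcs call was lost without iHep replicate 1 or either colon array, at 0.60 to 0.83. The Crp call was lost without any iHep array or colon replicate 2, at 0.64 to 1.05. In the list of plasma proteins, 8 of 21 were higher and 3 lower (median 0.56, against 0.22 over all genes), with Fgb at 7.72 ± 0.66, Cp at 6.10 ± 0.38 and Itih2, another heavy chain, at 5.23 ± 0.56, against Saa1, an acute phase serum amyloid A, at −8.38 ± 0.27. Of 24 signalling genes 6 were higher and 7 lower, and of 35 iron and haem genes 11 and 7. The ferroxidase Heph, which loads exported iron in gut epithelium (−7.18 ± 0.27), and Slc40a1 (−5.91 ± 0.39) were the lowest of the iron genes.

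Adult and fetal liver differed in all of these genes. All 9 were higher in adult liver, where 49.3% of all tested genes were called in either direction. Hamp had the largest difference (6.74 ± 0.28, adjusted p = 2.65e-07), with 7.40 ± 0.35 in its second probe set, followed by Crp (6.43 ± 0.37), Itih4 (4.63 ± 0.36), Hpx (4.35 ± 1.03), Saa4 (4.31 ± 0.40), Apcs (3.80 ± 0.24) and Itih3 (3.41 ± 0.31). The second Saa4 probe set gave a smaller difference of 2.5 ± 0.42 (adjusted p = 0.000696). Saa3 was higher by 2.64 ± 0.57 (adjusted p = 0.00344) and Hp by 2.39 ± 0.59 (adjusted p = 0.00688). The Hp call was lost without fetal liver replicate 1 (2.01, adjusted p = 0.0626). The shared Trf and Srprb probe set stood at 1.40 ± 1.07 (adjusted p = 0.325), near the ceiling of the scale in adult liver. Its arrays were at 14.56 and 14.46 in adult liver and 13.17 and 13.04 in fetal liver. The SE carries the spread of the whole model. The standard deviation was 2.29 in the iHep lines, against 0.07 and 0.09 in these livers.

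Between the adult liver arrays, Saa3 was at 10.76 in replicate 1 and 9.09 in replicate 2. Kupffer cell markers averaged 10.98 and 8.71 in the same arrays and macrophage markers 9.53 and 8.22, while the hepatocyte mean was 14.30 and 14.39. The part of macrophages in the Saa3 level was not tested. Hamp ran the other way, at 12.40 in replicate 1 and 13.17 in replicate 2.

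Iron genes around Hamp differed in both directions between adult and fetal liver. Of 35 iron and haem genes, 12 were higher and 13 lower, with a median of 0.32 against −0.16 over all genes. Those higher included Hamp2 (6.92 ± 0.21), Slc39a14, a carrier of iron not bound to transferrin (5.2 ± 0.42), the BMP coreceptor hemojuvelin Hjv (4.84), its protease Tmprss6 (4.75) and Tfr2 (2.87). Ltf (−6.16 ± 0.89), Blvrb, a biliverdin reductase, and Tfrc (−2.78) were lower, where erythroid markers averaged 7.22 and 7.04 in adult and 10.77 and 10.93 in fetal liver. The part of red cell precursors and neutrophils in these was not tested. Bmp6, the iron-responsive ligand for hepcidin, did not pass the threshold (0.62 ± 0.36). Of 21 other plasma proteins, 15 were higher and 4 lower, led by Orm1 (8.14 ± 0.34), Mbl2 (8.05 ± 0.57), Saa1 (6.72 ± 0.30) and Itih1 (6.00 ± 0.31), and the lower ones were Lcn2, A2m, Mt1 and Mt2. Of 24 signalling genes, 11 were higher and 3 lower, Lifr (6.06 ± 0.59) and Il6ra, the interleukin 6 receptor (3.20 ± 0.35), among the higher.

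Adult liver against colon crypts gave 8 of 9 genes higher and 0 lower, where 60.7% of all tested genes were called. The differences ran up to 10.20 ± 0.31 for Itih3. Saa3 was the exception, at 0.90 ± 0.57 (adjusted p = 0.20), and it passed the threshold without adult liver replicate 2 (1.73, adjusted p = 0.0281) and with quantile normalization repeated (1.58, adjusted p = 0.0368). The shared Trf and Srprb probe set was higher in adult liver by 6.00 ± 1.07 (adjusted p = 0.00079), where 62.9% of probe sets were called. Of the other plasma proteins, 14 of 21 were higher and 2 lower (median 6.71, against −0.20 over all genes). The 2 lower ones were Saa1 and the interleukin 1 antagonist Il1rn. Slc40a1 did not pass the threshold (1.05 ± 0.43), and Heph was lower (−6.77 ± 0.29), at 3.62 and 3.14 in adult liver, against 10.09 and 10.22 in colon.

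The haem and haemoglobin scavengers were much lower in engrafted than in cultured iHeps. Engrafted iHeps had Hp at 5.72 and 6.05, against 9.10, 9.43 and 11.22 in cultured iHeps, and Hpx at 4.65 and 4.23, against 8.01, 11.11 and 12.14. Hpx fell by 5.98 ± 0.94 (adjusted p = 0.000711) and Hp by 4.03 ± 0.54 (adjusted p = 0.000265). Apcs changed by −0.86 ± 0.22 (adjusted p = 0.00944), with both engrafted arrays (5.39 and 5.42) under the 40th percentile, so the size is limited by background. These were the 3 of 9 genes called, all lower, where 48% of all tested genes were called. Saa3 (−0.52 ± 0.52), Saa4 (−0.28 ± 0.36), Crp (0.62 ± 0.34), Itih4 (−0.38 ± 0.33), Hamp (−0.04 ± 0.26) and Itih3 (0.03 ± 0.29) did not pass, and of these only Saa3 had been clear of background in iHeps. The shared Trf and Srprb probe set stood at −0.44 ± 0.98 (adjusted p = 0.735).

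**Figure D3:**
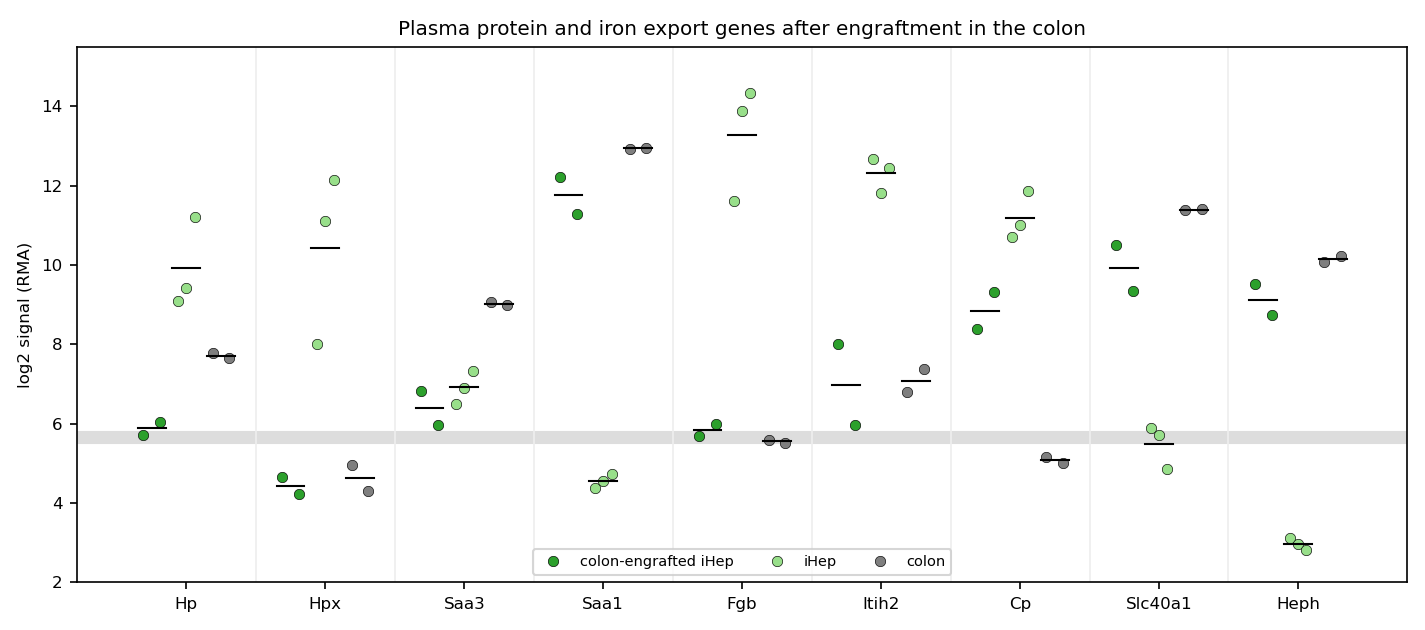
Log2 RMA signal (vertical axis) of 3 of the described genes and 6 related plasma protein or iron genes (horizontal axis) in engrafted iHeps, cultured iHeps and colon crypts. Points are arrays and lines are means, and the grey band is the 40th percentile of the arrays. Hp, Hpx, Fgb, Itih2 and Cp were lower and Saa1, Slc40a1 and Heph higher in engrafted than in cultured iHeps.

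Other secreted proteins moved in both directions on engraftment. Of 21 tested, 5 were higher and 6 lower (median −0.58, against −0.22 over all genes). Fgb was at 5.68 and 5.99 in engrafted iHeps, against 11.62, 13.89 and 14.34 in cultured iHeps, and changed by −7.44 ± 0.66. Itih2 changed by −5.33 ± 0.56, Serpina3n, a protease inhibitor, by −2.40, and Cp by −2.34. Saa1 was at 12.22 and 11.30, against 4.39, 4.55 and 4.74, a difference of 7.20 ± 0.27 (adjusted p = 1.52e-07), and Il1rn was higher by 3.39 ± 0.51. Saa1 has a near-identical copy in Saa2, which was also higher (1.92), so their signals may be mixed.

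Several cytokine receptors were lower after engraftment. Of 24 signalling genes, 5 were higher and 9 lower, with Osmr (−3.93 ± 0.80), Lifr (−3.64 ± 0.54) and Il1r1 (−2.93 ± 0.36) the lowest, and Il6st, Il1rap and Tnfrsf1a also lower. Foxa1 (4.50 ± 0.55) and Hnf4a (2.49 ± 0.77) were higher. Whether their probe sets also read the retroviral copies was not tested. Of 35 iron and haem genes, 5 were higher and 13 lower. Heph was at 9.52 and 8.74 in engrafted iHeps, against 3.12, 2.98 and 2.82 in culture (6.16 ± 0.27), and Slc40a1 at 10.51 and 9.34, against 5.89, 5.71 and 4.85 (4.44 ± 0.39). Hmox1, the enzyme that breaks down haem, was lower (−2.60 ± 0.55), as was the BMP target Id1 (−2.56 ± 0.59).

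Colon epithelial markers moved with these changes. All 8 lay above the 40th percentile in engrafted iHeps and in colon, with array means of 10.93 and 10.14 in engrafted iHeps, 5.51 to 5.66 in cultured iHeps and 11.92 and 11.88 in colon. Engrafted replicate 2 also had fibroblast markers at 9.76 and macrophage markers at 7.82, against 6.56 and 5.10 in replicate 1. The part of host cells in the engrafted profile was not tested. Fits without 1 of the 2 engrafted arrays leave 1 array in that group, so their counts of genes called add no support.

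Set against colon crypts, engrafted iHeps differed in 1 gene higher and 1 lower, of 9 tested, where 16.8% of all tested genes were called. Saa3 was lower, at 6.83 and 5.96 in engrafted iHeps, against 9.06 and 8.99 in colon (−2.63 ± 0.57, adjusted p = 0.0141). That call was lost without engrafted replicate 2 (−2.20, adjusted p = 0.0555) or either colon array. Neutrophil markers averaged 6.04 and 6.56 in engrafted iHeps, against 8.67 and 8.52 in colon, and macrophage markers 5.1 and 7.82, against 7.0 and 7.02. Their part in the Saa3 difference was not tested. Crp was higher by 1.56 ± 0.37 (adjusted p = 0.0204), with both groups under the 40th percentile, and was lost without engrafted replicate 1 or either colon array (1.26 to 1.87). Hp stood at −1.83 ± 0.59 (adjusted p = 0.0617), with no overlap between the groups. Its standard deviation was 0.23 in engrafted iHeps and 0.09 in colon, against 1.14 in the iHep lines that share the model. The second Saa4 probe set was higher by 2.22 ± 0.42 (adjusted p = 0.00671, where 17.7% of probe sets were called), at 5.82 and 5.30 in engrafted iHeps and 2.87 and 3.81 in colon. The main one was not (0.43 ± 0.40). Of the other plasma proteins 1 of 21 was higher, Cp at 3.76 ± 0.42, and 2 were lower, Saa2 and Saa1, with Saa1 at −1.19 ± 0.30. Cp was at 8.38 and 9.32 in engrafted iHeps, 10.7 to 11.87 in the 3 cultured iHep arrays and 5.15 and 5.02 in colon. Of 24 signalling genes 0 were higher and 4 lower, among them Il1b and Il1r1, and of 35 iron genes 1 was higher and 4 lower. The comparisons of engrafted iHeps with iHeps and with colon share the engrafted arrays.

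The shRNA experiment in iHeps asked what loss of Cdx2 does. Cdx2 itself was at 7.78, 8.02, 8.01 and 8.03 with its shRNA and at 9.14, 9.42, 8.96 and 8.98 with scramble shRNA (−1.16 ± 0.12, adjusted p = 0.00397). Of the 9 genes, 6 were tested and 0 were called in the fit without pairing, where 2.21% of all 13650 tested genes were called. The lowest p of the 6 was that of Apcs, with 6.43, 6.17, 6.54 and 6.54 under Cdx2 shRNA and 5.85, 6.07, 6.22 and 6.20 under scramble shRNA (0.33 ± 0.12, adjusted p = 0.211, limma). With the replicate number as a block the count was also 0, where 5.57% of all genes were called, with Hp at 0.29 ± 0.07 (adjusted p = 0.0801) and Apcs at 0.33 ± 0.09 (adjusted p = 0.0926). The 2 groups overlapped in all 9 genes, again with no share over all genes given.

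**Figure D4:**
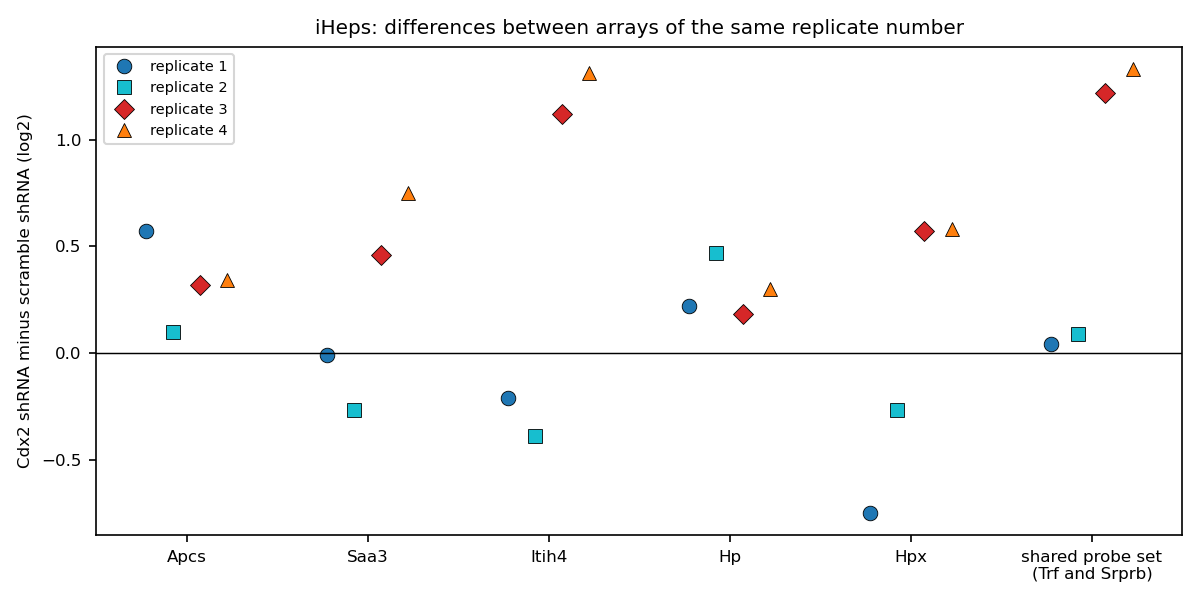
Difference between the Cdx2 shRNA and the scramble shRNA array of the same replicate number (vertical axis, log2) for the 5 genes shown and the probe set shared by Trf and Srprb (horizontal axis). Symbols are replicates 1 to 4. Hpx, Itih4 and Saa3 lie below 0 in replicates 1 and 2 and above 0 in replicates 3 and 4.

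The replicates divided for several genes. Hpx differed by −0.75 and −0.27 in replicates 1 and 2 and by 0.57 and 0.58 in replicates 3 and 4. Itih4 differed by −0.21 and −0.39, then 1.12 and 1.31, and Saa3 by −0.01 and −0.27, then 0.46 and 0.75. The shared Trf and Srprb probe set differed by 0.04 and 0.09, then 1.22 and 1.33 (0.67 ± 0.77 over the group, adjusted p = 0.781, where 1.41% of probe sets were called). Hp was higher in all 4 pairs (0.22, 0.47, 0.18 and 0.30), as was Apcs (0.57, 0.10, 0.32 and 0.34). Replicates 1 and 2 also stood lower than 3 and 4 in both groups for Hp, Hpx and the shared probe set. The hepatocyte marker mean was 7.53, 8.35, 9.26 and 9.10 under Cdx2 shRNA and 8.31, 8.72, 8.69 and 8.55 under scramble shRNA, so its difference between the groups was also below 0 in replicates 1 and 2 and above 0 in 3 and 4. Its part in these differences was not tested.

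Around them, 0 of 14 other plasma proteins changed (median −0.02, against 0 over all genes). Ahsg, a carrier of calcium phosphate (0.69 ± 0.35), and Lrg1 (0.54 ± 0.42) had the largest values. Of 23 signalling genes 0 were higher and 1 lower, Hnf4a (−0.89 ± 0.18, adjusted p = 0.044), and with the block 2 were higher and 2 lower. Cebpd stood at 0.70 ± 0.18 (adjusted p = 0.0845). Of 32 iron and haem genes 1 rose, Tfrc (0.37 ± 0.07), and 3 fell. These were Hfe (−0.63 ± 0.11), which senses iron with Tfr2, the endosomal reductase Steap3 (−0.52 ± 0.10) and the haem exporter Flvcr1 (−0.43 ± 0.09). With the block, 2 of the 32 were higher and 3 lower.

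In iMacs, Hp and Saa3 stood well above the 40th percentile in all 6 arrays, and the other genes lay near or under it. Ebf1 was at 7.41 and 7.21 with its own shRNA and at 8.31 and 8.38 with scramble shRNA (−1.04 ± 0.11, adjusted p = 0.00389). In arrays labelled Pou2af1 shRNA, Pou2af1 had 11.34 and 11.26, against 11.25 and 11.06 with scramble shRNA (0.14 ± 0.12, adjusted p = 0.495), so these arrays did not show a lower level of the target, and each direction given for them rests on the label. Only 3 of the 9 genes, Saa3, Hp and Itih4, passed the filter on low values.

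With Ebf1 shRNA, Hp and Saa3 were higher than with scramble shRNA, and 3 of 3 tested genes were called higher with Itih4, where 14.4% of all 12484 tested genes were called. Hp was at 13.48 and 13.53, against 12.77 and 12.80 (0.72 ± 0.09, adjusted p = 0.00719). Saa3 was at 10.51 and 10.52, against 10.04 and 9.72 (0.64 ± 0.14, adjusted p = 0.0328), a call lost without any 1 of the 4 arrays (0.48 to 0.80). Itih4 was at 5.76 and 5.74, against 4.87 and 4.80, both scramble arrays lying under the 40th percentile. It passed the filter only through shRNA arrays in which it was higher, so its call adds no support, and the size (0.92 ± 0.14) is limited by background. The call was lost without either scramble array. Of 16 other plasma proteins, 2 rose, Itih1 (1.68 ± 0.27) and Itih2 (0.95 ± 0.12), and 1 fell, Orm1 (−0.50 ± 0.10), with a median of 0.05 against −0.04 over all genes. Itih1 and Itih2 passed the filter only through the Ebf1 shRNA arrays (6.95 and 7.1 for Itih1, 6.28 and 6.2 for Itih2), the scramble arrays lying at 5.26 to 5.40, so these calls add no support either. Among 19 signalling genes 5 rose and 2 fell. Il6 rose by 1.31 ± 0.11, Lifr by 0.81 ± 0.13, Cebpb, a C/EBP factor of macrophages and liver, by 0.70 ± 0.10, and the feedback inhibitor Socs3 by 0.49, while Il6ra fell by 0.60 ± 0.10. Of 26 iron and haem genes 5 rose and 0 fell: Blvrb (1.81 ± 0.12), the iron sensor Fbxl5 (1.02 ± 0.18), Hmox1 (0.90 ± 0.10), the haem transporter Slc48a1 (0.63 ± 0.10) and the ferritin heavy chain Fth1 (0.48 ± 0.11).

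**Figure D5:**
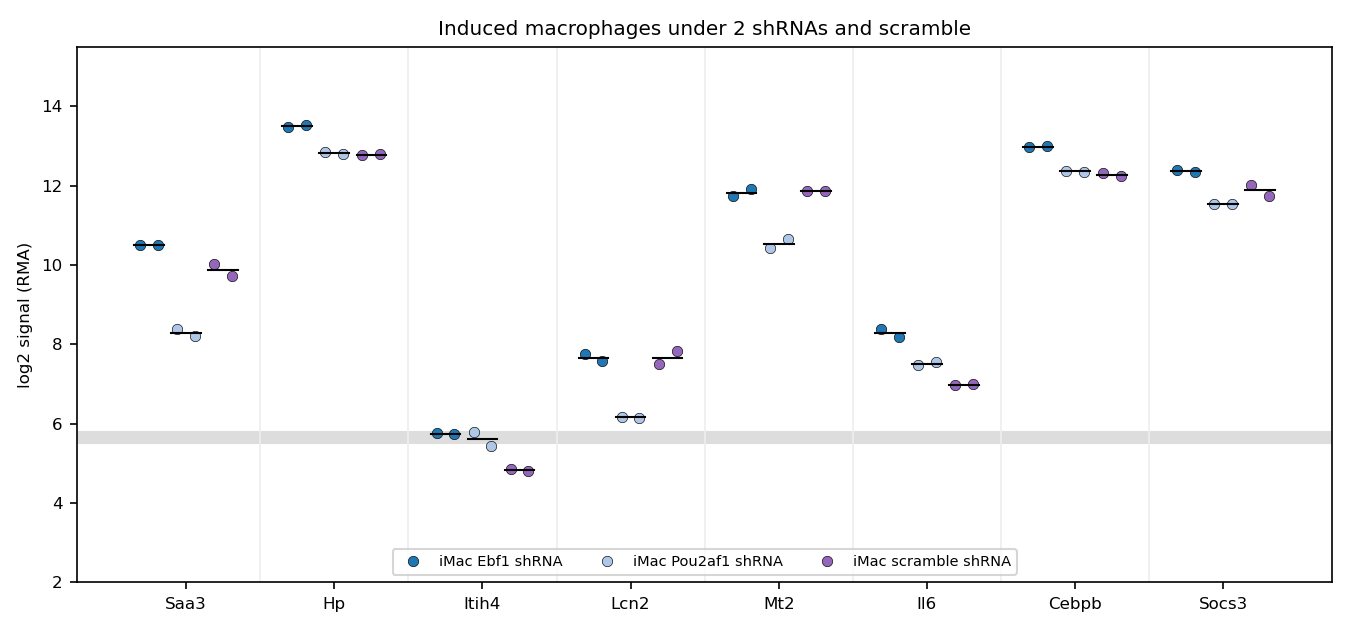
Log2 RMA signal (vertical axis) of 3 of the described genes and 5 related genes (horizontal axis) in iMacs with Ebf1 shRNA, labelled Pou2af1 shRNA, and with scramble shRNA. Points are arrays, lines are means of 2 arrays, and the grey band is the 40th percentile of the arrays. Saa3 was highest with Ebf1 shRNA and lowest in the arrays labelled Pou2af1 shRNA, and Hp was high in all 6 arrays.

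In the iMacs labelled Pou2af1 shRNA, 1 of the 3 tested genes was higher and 1 lower than with scramble shRNA, where 11.9% of all tested genes were called. Saa3 was at 8.39 and 8.21, against 10.04 and 9.72 (−1.58 ± 0.14, adjusted p = 0.00253), with no overlap. Hp was at 12.85 and 12.79, against 12.77 and 12.80 (0.03 ± 0.09, adjusted p = 0.848). Itih4 was at 5.80 and 5.45, against 4.87 and 4.80, and was the gene called higher (0.79 ± 0.14), under the same limits of filter and background. That call was lost without Pou2af1 replicate 1 or either scramble array. Other proteins lower in these arrays were Lcn2 (−1.51 ± 0.14), Mt2 (−1.33 ± 0.12), Mt1 (−0.77 ± 0.09) and Itih2 (−0.50 ± 0.12, with both groups under the 40th percentile), and Orm3 was higher (1.08 ± 0.16), 5 of 16 tested (median −0.36, against −0.03 over all genes). Of 19 signalling genes 3 were higher and 1 lower, with Tnf at 0.70 ± 0.11 and Il6 at 0.52 ± 0.11. Of 26 iron and haem genes 4 were higher and 2 lower, including Hfe (1.41 ± 0.25), Blvrb (1.01 ± 0.12) and Hmox1 (0.98 ± 0.10) among the higher and the BMP feedback inhibitor Smad7 (−0.98 ± 0.12) and Id1 (−0.57 ± 0.12) among the lower. The iMac groups also differed in cell markers: macrophage marker means were 10.62 and 10.57 with Ebf1 shRNA, 10.99 and 10.93 in the arrays labelled Pou2af1 shRNA and 10.17 and 10.02 with scramble shRNA. Pre-B cell markers averaged 8.16 and 8.43 with Ebf1 shRNA, 9.9 and 9.81 in the arrays labelled Pou2af1 shRNA and 8.79 and 8.95 with scramble shRNA. The 5 neutrophil markers averaged 8.03 and 7.92 with Ebf1 shRNA, 7.91 and 7.75 in the arrays labelled Pou2af1 shRNA and 8.18 and 8.31 with scramble shRNA. By this mean, Ebf1 shRNA lay below scramble shRNA. The log2 of their summed signal was 14.56 and 14.41 with Ebf1 shRNA, 13.66 and 13.49 in the arrays labelled Pou2af1 shRNA and 14.44 and 14.32 with scramble shRNA. Their part in these differences was not tested.

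Between the 2 shRNAs, Saa3 and Hp were higher with Ebf1 shRNA and 0 of the 3 tested genes lower, where 16.4% of all tested genes were called. Saa3 differed by 2.22 ± 0.14 (adjusted p = 0.000387) and Hp by 0.68 ± 0.09 (adjusted p = 0.00606), while Itih4 stood at 0.13 ± 0.14. Of 16 other plasma proteins 7 were higher and 1 lower, led by Itih1 (2.22 ± 0.27), Lcn2 (1.51 ± 0.14), Itih2 (1.45 ± 0.12) and Lrg1 (1.31 ± 0.22). Itih1 and Itih2 passed the filter only through the Ebf1 shRNA arrays, so their calls add no support to that count and their sizes are limited by background. Of 19 signalling genes 7 were higher and 4 lower, among them Socs3 (0.83 ± 0.12), Il6 (0.79 ± 0.11), Nfkbia (0.72 ± 0.13), the NF-kappaB inhibitor, and Cebpb (0.61 ± 0.10), while Cebpd was lower (−0.55 ± 0.11). Hfe (−2.16 ± 0.25) was lower and Smad7 (1.38 ± 0.12) higher among 26 iron genes, of which 6 were higher and 2 lower. The 3 iMac comparisons share arrays in pairs. Saa3 had 3 separated levels in iMacs. Hp had 1 level in scramble iMacs and those labelled Pou2af1 shRNA, and a higher level with Ebf1 shRNA.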

How the data were processed

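RNA of 25 samples (100 ng each, amplified with a Nugen kit per the labels' protocols) was hybridised to 1-colour Affymetrix mouse arrays, 1 array per sample. The deposited values are log2 signals per probe set that the authors made with RMA, per the submitters' processing notes, and its version is not given in the sources used here. Nothing was rescaled: columns had medians of 6.11 to 6.30 and a range of 2.05 to 15.11, and no 2 columns were identical. Precision depends on how many arrays a group has.

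Probe sets were named from GEO's platform annotation: of 45101, 34945 had 1 symbol, 932 several and 9160 were unlisted, beside 64 controls. Each of 18193 genes was read from its probe set with the highest mean. limma 3.58.1 (R 4.3.3; lmFit, contrasts.fit, eBayes) was run in 3 models, of 6 iMac arrays, of 8 iHep shRNA arrays and of the 11 others, on genes above the 40th percentile of their array in at least 2 arrays, with two-sided tests and Benjamini-Hochberg adjustment over all tested genes. Figures were drawn with matplotlib 3.10.9. The fits were tested on simulated data.

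Same-numbered Cdx2 and scramble shRNA arrays deviated together (correlations of 0.32 to 0.58 over 4 pairs). They were taken as pairs in the differences by replicate number and in the replicate block. The main fit, which gave the other Cdx2 values, did not pair them. The labels do not state a pairing. The members, related gene lists and motifs were chosen with earlier results of these data known. From each list, up to 4 genes past the threshold and 2 not past it were named by size in each comparison, and for each member the gene with the most similar group means. Further list genes, among them Socs3, Il6ra, Tfrc, Tfr2, Hjv, Serpina3n and Fth1, were named after their values were seen. Probe sets listed for several genes entered only as the 1 shared by Trf and Srprb, in a fit of all probe sets. Alternatives changed the filter, probe set choice, normalization, variance model, replicate block and arrays included.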

Additional observations from a re-analysis of the deposited data

How the results depend on the processing

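Of 78 tested values of the 9 genes, 50 passed the threshold, 36 of these under every alternative run, and 14 were lost under at least 1. Of the 28 that did not pass, 5 passed under at least 1 alternative, and 0 changed sign while called. The counts of genes called moved as follows, and the share of all genes called moved too. For iHeps against colon it was 53.6%. It was 55.3% with the mean of probe sets, 65.5% with all 25 arrays in 1 model and 41.3% with a minimum log2 change of 1. For engrafted iHeps against colon it was 16.8%, then 20.5%, 35.5% and 14.1%. With all 25 arrays, it went from 14.4% to 2.77% for Ebf1 and from 11.9% to 2.02% for Pou2af1 against scramble shRNA. For iHeps against colon the count was 5, 6 with the mean of probe sets or all 25 arrays in 1 model (Saa4 added), 3 with a minimum log2 change of 1, and 3 to 4 without 1 array at a time. For engrafted iHeps against colon it was 2, 3 with all 25 arrays or the replicate block (Hp added) or the mean of probe sets (Saa4 added). It was 1 with suffixed probe sets (_s_at, _x_at or _a_at) left out, and lower than 2 without any 1 array. Leaving out suffixed probe sets removes Saa3 and Itih4 by construction, though theirs are listed for Saa3 alone and Itih4 alone. For Ebf1 against scramble shRNA in iMacs it was 3, and 1 with suffixed probe sets left out. It was 0 with all 25 arrays in 1 model, 0 with the minimum change and lower than 3 without any 1 array. For arrays labelled Pou2af1 shRNA against scramble it was 2, 1 with a 60th percentile filter and 0 with suffixed probe sets left out. It was 0 with all 25 arrays, 1 with the minimum change and at most 2 without 1 array. For Ebf1 against Pou2af1 shRNA it was 2, and 1 under each of suffixed probe sets left out, all 25 arrays and the minimum change. Apart from genes removed by construction and the added minimum change, the causes of these moves were not tested. Without 1 array, the counts were 9 for iHeps against adult liver, 5 to 8 against fetal liver, 3 for engrafted against cultured iHeps, 8 to 9 for adult against fetal liver and against colon, and 0 for Cdx2 shRNA.

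Over all genes, Cdx2 shRNA gave 302 calls, 760 with the replicate block, 73 with all 25 arrays and 76 with the minimum change. Ebf1 shRNA gave 1794 calls, 1120 with no filter, 2856 with a trended robust variance, 432 with all 25 arrays and 410 with the minimum change. Arrays labelled Pou2af1 shRNA gave 1490, and 923, 2551, 315 and 359 under those 4 settings. Ebf1 against Pou2af1 shRNA gave 2048, 659 with all 25 arrays and 574 with the minimum change. Without 1 array at a time, Cdx2 shRNA gave 56 to 224 calls, Ebf1 shRNA 507 to 825, arrays labelled Pou2af1 shRNA 355 to 450, Ebf1 against Pou2af1 shRNA 892 to 1308, engrafted iHeps against colon 774 to 3705 (2557 with all arrays) and iHeps against fetal liver 3007 to 4518 (5038 with all arrays), so the shares of all genes called move with them. Centring arrays on their median moved the all-gene median by 0.16 for iHeps against adult liver and 0.13 against colon, and by −0.11 for engrafted against cultured iHeps and for adult against fetal liver. Repeated quantile normalization moved it by −0.12 for iHeps against adult liver and 0.28 for adult liver against colon. Outside the Cdx2 experiment, numbers paired no samples (correlations of −0.15 to 0.10), and with the replicate block Hamp in iHeps against fetal liver was no longer called (−0.88, adjusted p = 0.0835) and Hp in engrafted iHeps against colon was (−1.83, adjusted p = 0.00951). Pairing adult and fetal liver arrays crosswise, added after seeing the data, gave 7256 calls over all genes, against 7051 paired by number.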

Other observations

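The second Saa4 probe set and the main one parted in iHeps. It was higher in iHeps than in colon (1.64 ± 0.38, adjusted p = 0.00486, limma, where 54.1% of probe sets were called), while the main probe set stood at 0.71 ± 0.36 (adjusted p = 0.124). With the mean of both, Saa4 was higher in iHeps by 1.18 (adjusted p = 0.00367).

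Hepatoblast markers were higher under Cdx2 shRNA than under scramble shRNA in every array, with means of 11.62, 12.15, 12.3 and 11.97 against 10.69, 11.12, 11.34 and 10.95, as a mean of 3 genes with no test. In the same arrays Cp, a ferroxidase of plasma, had 11.83, 12.0, 12.59 and 12.46 under Cdx2 shRNA and 12.12, 12.36, 12.77 and 12.66 under scramble shRNA.

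The iron exporter Slc40a1 was at 10.51 and 9.34 in engrafted iHeps, 12.72 and 12.17 in adult liver, 11.84 and 11.97 in fetal liver and 11.38 and 11.41 in colon, and at 4.85 to 5.89 in all 11 cultured iHep arrays. In iMacs it lay at 5.09 to 5.80, where Cd163, the receptor for haptoglobin bound to haemoglobin, was at 3.45 to 4.06.

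Ltf differed between the 2 engrafted arrays, at 8.45 in replicate 1 and 4.94 in replicate 2.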
